A study of Mus musculus with 14 samples.

Results

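The response of wild type (WT) mouse hepatic stellate cells to calcipotriol was measured in 4 of the 14 libraries of the series, 2 treated with vehicle and 2 with calcipotriol, and all genes of these libraries were examined. They were chosen by their labels alone. The stellate cells had been isolated from livers of WT mice and made to grow without limit with an SV40 antigen, and were kept in DMEM with serum, and all 4 libraries share this background. The dose of calcipotriol, the time of exposure, the vehicle and the number of cell lines or cultures behind the libraries were not stated in the labels. A matching experiment on cells without p62 (p62KO), also with 2 libraries a group, is used only for comparison, and the 6 liver libraries are not used here. Nothing says that the replicates came from separate cultures, and the p-values reflect spread from library to library that may be technical.

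Hepatic stellate cells store vitamin A in the healthy liver, and on injury they turn into myofibroblasts that lay down scar matrix. Calcipotriol is a synthetic analogue of the active form of vitamin D. It binds the vitamin D receptor (VDR), a nuclear receptor that pairs with a retinoid X receptor (RXR) on DNA and recruits coactivators to its target genes. The best known of these is Cyp24a1, whose enzyme inactivates vitamin D and so closes a feedback loop. In stellate cells the activated receptor is known to oppose the transcriptional program of TGF-beta.

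Total counts per library lay between 15207117 and 18613062. Of 15 stellate cell and myofibroblast markers, 10 exceeded 1 CPM (a gene's count scaled to the TMM-adjusted library total) in all 4 libraries, among them Col1a1, Acta2, Pdgfrb, Hand2 and Lhx2. The vitamin A storage gene Lrat and the pericyte gene Rgs5 had no counts, and desmin (Des), Reln and Cygb stayed at or below 1.29 CPM. Among markers of other cell types, the 5 of hepatocytes summed to at most 0.117 CPM and the 5 of macrophages to at most 5.03 CPM, in calcipotriol replicate 1. The 5 endothelial markers summed to 5.28 and 4.298 CPM with vehicle and 7.54 and 8.78 CPM with calcipotriol, most of it from the receptor gene Kdr. Kdr stood at 4.95 and 3.90 CPM with vehicle and 6.78 and 8.24 CPM with calcipotriol. For Lhx2 the levels were 9.16 and 8.79 CPM with vehicle and 10.8 and 8.24 CPM with calcipotriol. Krt19 of cholangiocytes stood between 1.51 and 2.28 CPM. The part of these cell types in the results was not tested. The vehicle libraries differed from each other by little more than counting error, with a chi-squared of 1.66 per degree of freedom over 12376 genes, against 11.7 over 12745 genes for the calcipotriol libraries. Among genes of at least 5 CPM, 78 were at least 2-fold higher in calcipotriol replicate 1 than in replicate 2 and 2 were at least 2-fold lower, while no gene differed so much between the vehicle libraries. The target of the knockout, Sqstm1 (p62), stood at 313 and 312 CPM with vehicle and 346 and 335 CPM with calcipotriol in these WT cells, and its change did not pass (log2 fold change 0.12 ± 0.0596, SE).

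The gene with the smallest p was Cyp24a1, the classical target of the receptor. Cyp24a1 (mm10 chromosome 2, 170482708 to 170497145) stood at 9.69 and 8.398 CPM with vehicle and 66.5 and 85.1 CPM with calcipotriol, so that both treated libraries lay far above both controls. The change was 8.38-fold (log2 fold change 3.07 ± 0.147, SE; adjusted p = 0.000408, edgeR quasi-likelihood test with Benjamini-Hochberg adjustment). The receptor gene Vdr (mm10 chromosome 15, 97854425 to 97910630) rose from 15.04 and 15.4 CPM to 30.9 and 29.7 CPM (1.99-fold; log2 fold change 0.99 ± 0.102; adjusted p = 0.00536, edgeR). Both genes passed in every fit that left out 1 of the 4 libraries.

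Of 20 members of the vitamin D axis list, 15 had enough counts to be tested. Over all 11987 genes tested, 1.48% rose and 1.4% fell, and far larger shares in fits without a calcipotriol library. Of the 15 axis members, Cyp24a1 and Vdr rose and Med1 fell. Without calcipotriol replicate 1, 3 rose and 5 fell, and without replicate 2, 3 rose and 4 fell. The RXR genes expressed here stood at 68.4 and 69.2 CPM with vehicle and 65.97 and 68.5 CPM with calcipotriol for Rxra and at 37.3 and 34.98 CPM with vehicle and 35.3 and 42.9 CPM with calcipotriol for Rxrb, with log2 fold changes of -0.03 ± 0.0671 and 0.12 ± 0.109 that did not pass. Rxrg had no counts. Med1, a subunit of the Mediator complex that bridges nuclear receptors and the polymerase, fell from 76.8 and 79.4 CPM to 61.1 and 62.98 CPM (-0.33 ± 0.0675), a call that was lost without either vehicle library and when gene length was taken into account. The coactivator genes Ncoa1, Ncoa2 and Ncoa3 had log2 fold changes of 0.10, -0.12 and -0.19. The corepressor gene Ncor1 had -0.14 and Snw1, a further coregulator, 0.04. None of these passed. Nor did Pdia3 (0.02), whose protein has been described as a membrane receptor of vitamin D, the uptake receptors Lrp2 (-0.40 ± 0.0932) and Cubn (-0.42), or Dhcr7 (0.47), which consumes the precursor of vitamin D. The genes that make active vitamin D had too few counts to be tested: Cyp27b1 stood at 0.201 and 0.727 CPM with vehicle and 0.584 and 0.431 CPM with calcipotriol, and Cyp2r1 and Cyp27a1 lay at most at 0.175 and 0.409 CPM.

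**Figure D1:**
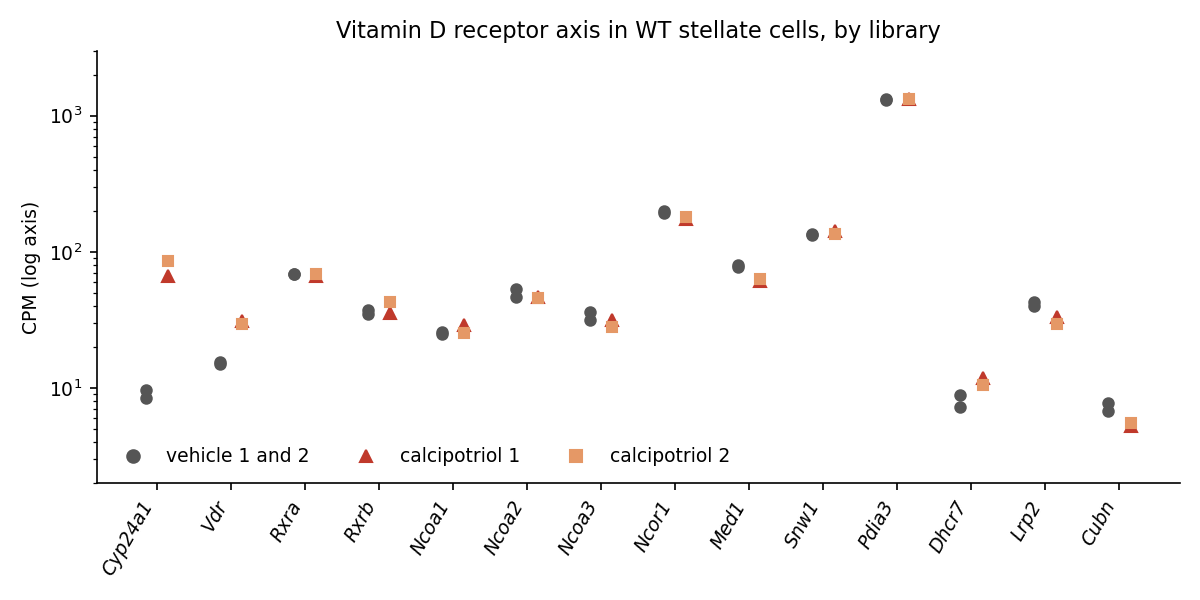
Level of 14 of the 15 tested genes of the vitamin D receptor axis in each WT library, in CPM on a log axis. Grey circles are the vehicle libraries, and the triangle and square are calcipotriol replicates 1 and 2. Cyp24a1 and Vdr lie apart from vehicle by 8.38-fold and 1.99-fold, while no retinoid X receptor gene passed.

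Among known vitamin D receptor targets of other tissues, most of those tested did not pass. In a list of 30, 17 were tested, 2 rose and none fell (over all genes tested, 1.48% rose and 1.4% fell). The median log2 fold change was 0.22 against 0.02 over all genes tested. Lrp5, a Wnt co-receptor and a target in bone, was the second that rose, from 109.9 and 109 CPM to 161 and 161 CPM (0.56 ± 0.0608, SE). Cdkn1a, the cell cycle inhibitor p21, stood at 98.1 and 98.1 CPM with vehicle and 212 and 124 CPM with calcipotriol (0.77 ± 0.208; adjusted p = 0.088, edgeR), a wide gap between the treated libraries, and did not pass. Spp1 (osteopontin), induced by vitamin D in bone cells, stood at 947 and 946 CPM with vehicle and 507 and 827 CPM with calcipotriol (-0.50 ± 0.187) and did not pass either. The median of the list was 0.32 in calcipotriol replicate 1 and 0.08 in replicate 2 (log2 against the vehicle mean). Without either vehicle library, 1 member rose and 0 fell. Without calcipotriol replicate 1, 6 rose and 3 fell, and without replicate 2, 8 rose and 4 fell.

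The 250 bases before the start site of 3 genes with a strong rise are shown to let the letters of a vitamin D response element be looked for: the receptor gene itself, and F11r and Fam43a, which had the smallest p among the other genes that rose and have 1 start site in the table of RefSeq promoters (GRCm38.p6). A response element of the usual DR3 kind joins a pair of half-sites, in the same direction with NNN between them. A half-site was any of AGGTCA and its variants AGTTCA or else GGTTCA or else GGGTCA, searched on both strands. Capitals mark a single half-site on either strand. The start sites are those of RefSeq, while the gene positions given above come from GENCODE. The Vdr window therefore lies inside the span given for Vdr, and the F11r window runs past the GENCODE start of F11r (171437535).
Vdr (chr15:97908297-97908546, minus strand): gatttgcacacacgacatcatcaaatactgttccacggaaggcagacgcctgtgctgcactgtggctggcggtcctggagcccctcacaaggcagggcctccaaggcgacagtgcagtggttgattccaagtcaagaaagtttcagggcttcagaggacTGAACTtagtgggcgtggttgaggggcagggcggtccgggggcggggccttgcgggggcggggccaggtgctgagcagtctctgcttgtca
F11r (chr1:171437311-171437560, plus strand): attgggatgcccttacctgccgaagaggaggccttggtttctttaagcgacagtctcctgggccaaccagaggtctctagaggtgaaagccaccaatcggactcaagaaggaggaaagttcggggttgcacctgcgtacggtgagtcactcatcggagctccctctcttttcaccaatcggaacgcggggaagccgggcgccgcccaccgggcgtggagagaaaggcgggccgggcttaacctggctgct
Fam43a (chr16:30599473-30599722, plus strand): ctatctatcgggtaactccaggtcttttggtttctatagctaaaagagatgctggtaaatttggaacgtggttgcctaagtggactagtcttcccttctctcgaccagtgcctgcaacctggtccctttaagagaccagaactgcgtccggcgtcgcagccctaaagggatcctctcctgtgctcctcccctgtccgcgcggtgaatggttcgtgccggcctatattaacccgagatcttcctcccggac

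None of these 3 windows held the DR3 letters, and the Vdr window held 1 half-site. The DR3 letters were found in 0 of 130 genes that rose and have a window, in 1 of 125 that fell and in 1 of 8976 of those tested, and in 13 of all 32851 windows of the table. A half-site occurred in 33.1% of the genes that rose, 29.6% of those that fell and 37.2% of those tested. A match is a description of letters, and the lack of one says nothing about sites farther away.

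In all, 345 of 11987 tested genes passed (2.88%; adjusted p under 0.05 in edgeR), 177 higher and 168 lower with calcipotriol. The changes were small: 53 reached 2-fold (0.442%), of which 48 rose and 5 fell, and the median log2 fold change was 0.64 among genes that rose and -0.42 among those that fell. Every called gene had both treated libraries on the same side of both controls, but so did 56.1% of all genes tested. The count depended on single libraries: it was 109 without vehicle replicate 1 and 109 without vehicle replicate 2, and 2331 and 4954 without calcipotriol replicates 1 and 2. In each of these fits the lone library is assumed to vary like the pair. Leaving out a calcipotriol library removed no call, so a call that passed in every leave-one-out fit was challenged only by the loss of a vehicle library. Counts given for gene lists without a calcipotriol library rise with the totals of these fits, and those without a vehicle library fall with them. Neither is a result about a list. Of the 345 genes, 87 passed in all 4 of these fits, 65 that rose and 22 that fell, and every call that was lost was lost without a vehicle library. In a fit of all 8 stellate cell libraries, which share 1 estimate of the spread with the more variable p62KO cells, 0 genes passed (edgeR; 301 at an unadjusted p under 0.05), and the smallest adjusted p was 0.192.

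**Figure D2:**
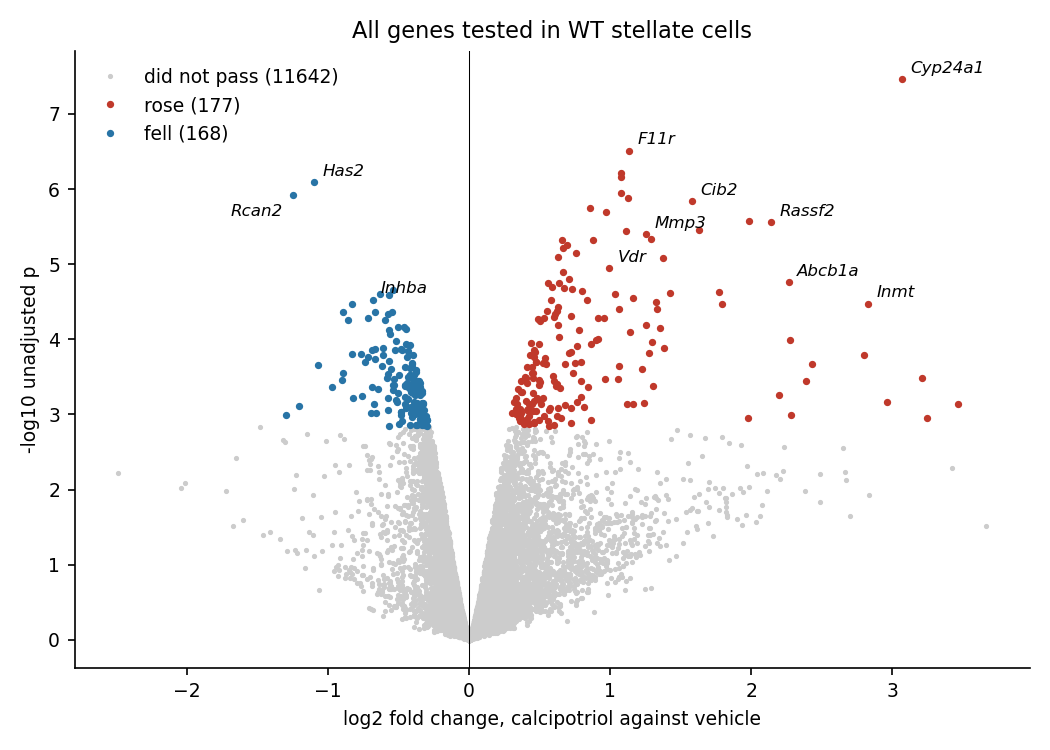
All 11987 genes tested in WT stellate cells, with the log2 fold change of calcipotriol against vehicle on the horizontal axis and -log10 of the unadjusted edgeR p on the vertical axis. Red points are the 177 genes that rose and blue points the 168 that fell; rises extend further from 0 than falls, and Cyp24a1 has the smallest p.

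Among called genes with a mean of 5 CPM or more in the higher group, Cyp24a1 was followed by 4 genes with roles in metabolism or transport. Inmt, a methyltransferase of indoleamines, stood at 2.07 and 2.12 CPM with vehicle and 10.3 and 19.4 CPM with calcipotriol (2.83 ± 0.338, SE). Cyp26b1, which degrades retinoic acid, rose from 1.002 and 1.39 CPM to 8.297 and 4.69 CPM (2.43 ± 0.378), Cdo1, which oxidises cysteine, from 1.203 and 1.52 CPM to 7.95 and 5.33 CPM, and Abcb1a, a drug efflux pump of the P-glycoprotein family, from 1.47 and 1.52 CPM to 7.304 and 7.17 CPM (2.27 ± 0.247). These 4 genes were low with vehicle and higher in both treated libraries, and passed in every leave-one-out fit. Abcb1a has a close paralog, Abcb1b, so its count may include shared reads. Rdh10, which takes part in making retinoic acid, also rose (0.68 ± 0.128), a call that was lost with a correction for gene length. Of 11 tested genes of retinoid metabolism, 2 rose and none fell (1.48% of all genes tested rose and 1.4% fell). The call of Rdh10 was lost without vehicle replicate 1, and 3 rose and 1 fell without calcipotriol replicate 1 and 6 and 2 without replicate 2. Below 5 CPM some fitted changes were as large or larger, with wider errors, as for Gal3st2 (3.24 ± 0.652), Limch1 (2.39 ± 0.402) and Scel (2.29 ± 0.451), called at 0.0668 and 0.132 CPM with vehicle and 0.993 and 1.02 CPM with calcipotriol, at 0.869 and 0.529 CPM with vehicle and 4.38 and 3.02 CPM with calcipotriol and at 0.735 and 0.727 CPM with vehicle and 4.79 and 2.42 CPM with calcipotriol. All 3 lost their calls without vehicle replicate 2. Gal3st2 and Scel also lost theirs with a correction for gene length.

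Next among genes of 5 CPM or more came Rassf2, Afap1l2 and, further down, Cib2. Rassf2, a Ras-association protein, stood at 3.14 and 3.17 CPM with vehicle and 14.7 and 13.2 CPM with calcipotriol (2.14 ± 0.182), Afap1l2, an adaptor of Src signalling, at 9.22 and 7.802 CPM with vehicle and 28.98 and 38.3 CPM with calcipotriol (1.98 ± 0.168), and Cib2, a calcium-binding protein, at 16.9 and 17.1 CPM with vehicle and 45.2 and 56.4 CPM with calcipotriol (1.58 ± 0.123). In each, both treated libraries stood far above both controls. F11r, the junctional adhesion molecule JAM-A, rose 2.19-fold from 57.3 and 57.9 CPM to 121 and 132 CPM. The other genes with the largest rises were Elfn1 (1.79 ± 0.214), Gzme (1.77 ± 0.202), Moxd1 (1.63 ± 0.143), Fbxl7 (1.43 ± 0.163), Fam212b (1.38 ± 0.200), Apba1 (1.38 ± 0.136) and Prelp (1.36 ± 0.179), a leucine-rich repeat protein of the matrix. Gzme belongs to a cluster of near-identical granzyme genes, so its count is uncertain. All of these passed in every leave-one-out fit.

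The genes in this paragraph, and those said below to lie outside the rule, together with Cdkn1a, Spp1, Ccnd1, Tgfb1, Mdm2, Trp53inp1, Fas, Il6, Ccl7, Gpnmb, Igfbp7, Ctsd, Hmgcs1, Lyz2, F11r, Fam43a, Met, Ogn, Fbn1, Plod1, Plaur and Bmp4, were picked after their values were seen. Apcdd1, a Wnt inhibitor at the cell surface, rose 2.11-fold, from 30.8 and 30.5 CPM to 62.8 and 66.6 CPM. Boc (0.97 ± 0.0795) and Cdon (0.53 ± 0.0671), co-receptors of Hedgehog ligands, and Foxf1 (0.69 ± 0.0645), a transcription factor of the liver mesenchyme, rose too. Tgm2, a transglutaminase that cross-links matrix proteins, rose from 46.2 and 47.2 CPM to 92.4 and 104 CPM (1.08 ± 0.0814). Lrrc32, which holds latent TGF-beta at the cell surface, rose from 19.1 and 22.5 CPM to 54.98 and 46.9 CPM, and F3, the tissue factor that starts coagulation, from 370.3 and 375 CPM to 592 and 564 CPM. The natriuretic peptide clearance receptor Npr3 stood at 472 and 476 CPM with vehicle and 756 and 933 CPM with calcipotriol, and the cell cycle inhibitor Cdkn2b (p15) at 39.5 and 42.1 CPM with vehicle and 67.8 and 59.5 CPM with calcipotriol. In each of these the calcipotriol libraries lay above both vehicle libraries; Cdon and F3 lost their call without a vehicle library.

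The largest falls were smaller than the largest rises. Has2, the synthase of the matrix polysaccharide hyaluronan, fell from 76.5 and 85.1 CPM to 37.2 and 38.1 CPM (2.14-fold lower; log2 fold change -1.10 ± 0.0795, SE; adjusted p = 0.00193, edgeR). Rcan2, an inhibitor of calcineurin, fell from 79.2 and 82.98 CPM to 30.97 and 37.1 CPM (-1.25 ± 0.0951). Both passed in every leave-one-out fit, and in both the treated libraries lay clear of the controls. Sprr2k (-1.30 ± 0.256), a cornified envelope protein with close paralogs, Sema7a (-1.21 ± 0.228), a semaphorin, and Adcyap1r1 (-1.07 ± 0.168), the receptor of the neuropeptide PACAP, also fell at least 2-fold and lost their calls without a vehicle library.

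The other large falls were in genes of varied function. Tll1, a protease of the BMP1 family that processes procollagen, fell from 345 and 349 CPM to 167 and 216 CPM (-0.86 ± 0.110). Hbegf, a ligand of the EGF receptor, stood at 202 and 206 CPM with vehicle and 97.6 and 132 CPM with calcipotriol (-0.83 ± 0.123), Hmga2, a chromatin protein of proliferating mesenchyme, at 755 and 755 CPM with vehicle and 394 and 513 CPM with calcipotriol (-0.74 ± 0.113), and Slco2a1, the prostaglandin transporter, at 97.3 and 97.00 CPM with vehicle and 45.7 and 58.7 CPM with calcipotriol (-0.89 ± 0.111). All of these passed in every leave-one-out fit. The rest were Lancl3 (-0.97 ± 0.169), Tmem200a (-0.90 ± 0.151), Eml5 (-0.89 ± 0.144), Hipk2 (-0.77 ± 0.114), Shc4 (-0.76 ± 0.137) and Ank3 (-0.72 ± 0.0912), of which Lancl3 and Shc4 lost their calls without a vehicle library. With a correction for gene length, Shc4 and Ank3 lost their calls, and the log2 fold change of Ank3 was -0.46.

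Of the matrix genes, a few rose and a few fell. Among 43 tested collagens and matrix proteins, 3 rose (Ogn, Dcn and Fbn1), 4 fell (Thbs1, Col6a3, Vcan and Postn) and 36 did not pass (1.48% of all genes tested rose and 1.4% fell), with a median log2 fold change of -0.01. Thbs1, thrombospondin, which frees TGF-beta from its latent complex, fell from 5868 and 5877 CPM to 3319 and 4084 CPM (-0.67 ± 0.101). Col6a3, a chain of type VI collagen, stood at 31.5 and 33.1 CPM with vehicle and 22.3 and 20.7 CPM with calcipotriol, and Postn (periostin), a matricellular protein, at 142 and 143 CPM with vehicle and 110.0 and 106 CPM with calcipotriol. Versican (Vcan) fell as well (-0.43 ± 0.0739). Decorin (Dcn), a small proteoglycan that binds collagen and TGF-beta, rose from 47.4 and 44.3 CPM to 64.5 and 58.5 CPM (0.42 ± 0.0816), as did osteoglycin (Ogn; 0.73 ± 0.149) and fibrillin (Fbn1; 0.37 ± 0.0724). The list rested on the vehicle pair: without vehicle replicate 1, 0 members passed, and without vehicle replicate 2, 1 rose and 0 fell. Without calcipotriol replicate 1, 10 rose and 13 fell, and without replicate 2, 10 rose and 19 fell. With a correction for gene length 2 rose and 1 fell.

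The genes most often used as markers of stellate cell activation, named here outside the rule, did not pass. Col1a1 stood at 2219.9 and 2296 CPM with vehicle and 2319 and 2664 CPM with calcipotriol (0.14 ± 0.0826; adjusted p = 0.342, edgeR), Col1a2 at 697 and 700.3 CPM with vehicle and 648 and 760.0 CPM with calcipotriol (0.01 ± 0.0832) and Col3a1 at 458 and 457 CPM with vehicle and 362 and 489 CPM with calcipotriol (-0.10 ± 0.124). Acta2, which encodes alpha smooth muscle actin, stood at 727 and 704 CPM with vehicle and 1072 and 739 CPM with calcipotriol (0.34 ± 0.148), and the protease inhibitor Timp1 at 289 and 267 CPM with vehicle and 212 and 269 CPM with calcipotriol (-0.21 ± 0.108). In Col1a2 and Col3a1 the treated libraries fell on both sides of the vehicle pair, in Timp1 replicate 2 lay between them, and in Acta2 replicate 1 stood far above the other 3. Of 19 tested contractile genes, the myosin light chain Myl9 rose (0.41 ± 0.0644), vimentin (Vim) fell (-0.40 ± 0.0808) and 17 did not pass (1.48% of all genes tested rose and 1.4% fell). Both calls were lost without either vehicle library and with a correction for gene length, while 3 rose and 7 fell without calcipotriol replicate 1 and 7 and 8 without replicate 2.

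Of 34 tested genes of matrix remodelling, 5 rose, 2 fell and 27 did not pass (1.48% of all genes tested rose and 1.4% fell). The stromelysins Mmp3 and Mmp10, proteases of proteoglycans and other matrix proteins, stood at 29.7 and 30.5 CPM with vehicle and 79.5 and 63.9 CPM with calcipotriol and at 28.7 and 27.4 CPM with vehicle and 57.8 and 82.3 CPM with calcipotriol (1.25 ± 0.112 and 1.32 ± 0.156). Loxl2, which cross-links collagen, rose from 197 and 191 CPM to 299.9 and 317 CPM (0.67 ± 0.0631). The procollagen protease Adamts2 (0.47 ± 0.0728) and the collagen lysyl hydroxylase Plod1 (0.60 ± 0.0977) rose as well, while Plaur, the urokinase receptor, was among those that fell (-0.67 ± 0.126). Mmp3, Mmp10, Loxl2 and Plaur passed in every leave-one-out fit. Without vehicle replicate 1, 4 rose and 1 fell, without vehicle replicate 2, 3 rose and 1 fell, and with a correction for gene length the counts were 5 and 2. They were 10 and 8 without calcipotriol replicate 1 and 15 and 11 without replicate 2.

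In the TGF-beta pathway, 6 of 36 tested genes fell, 1 rose and 29 did not pass, against 1.4% falling and 1.48% rising over all genes. Those that fell included a ligand, activators and targets. Inhba, a subunit of activin, fell from 55.5 and 53.6 CPM to 32.5 and 35.3 CPM (-0.68 ± 0.0804; adjusted p = 0.00818, edgeR), and both treated libraries were below both controls. Ltbp1, which binds latent TGF-beta to the matrix, stood at 796 and 822 CPM with vehicle and 551 and 606 CPM with calcipotriol (-0.48 ± 0.0703), and Itgav, an integrin chain that activates it, at 959 and 971 CPM with vehicle and 669.9 and 754 CPM with calcipotriol (-0.44 ± 0.0744). The target Ctgf stood at 3759 and 3793 CPM with vehicle and 2891 and 2844 CPM with calcipotriol, and Thbs1, given above, fell too. Bmp4, a ligand of the BMP branch, rose from 55.1 and 53.1 CPM to 74.9 and 103 CPM (0.72 ± 0.138). Tgfb1 itself stood at 19.3 and 17.9 CPM with vehicle and 21.4 and 19.2 CPM with calcipotriol (0.13 ± 0.118) and did not pass. The median of the 36 genes was 0.01, against 0.02 over all genes tested. Inhba and Bmp4 passed in every leave-one-out fit, where 1 fell and 1 rose without either vehicle library, 10 and 10 without calcipotriol replicate 1, and 11 and 14 without replicate 2. With a correction for gene length 4 fell, among them Inhba, Thbs1 and Ctgf, and 0 rose.

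**Figure D3:**
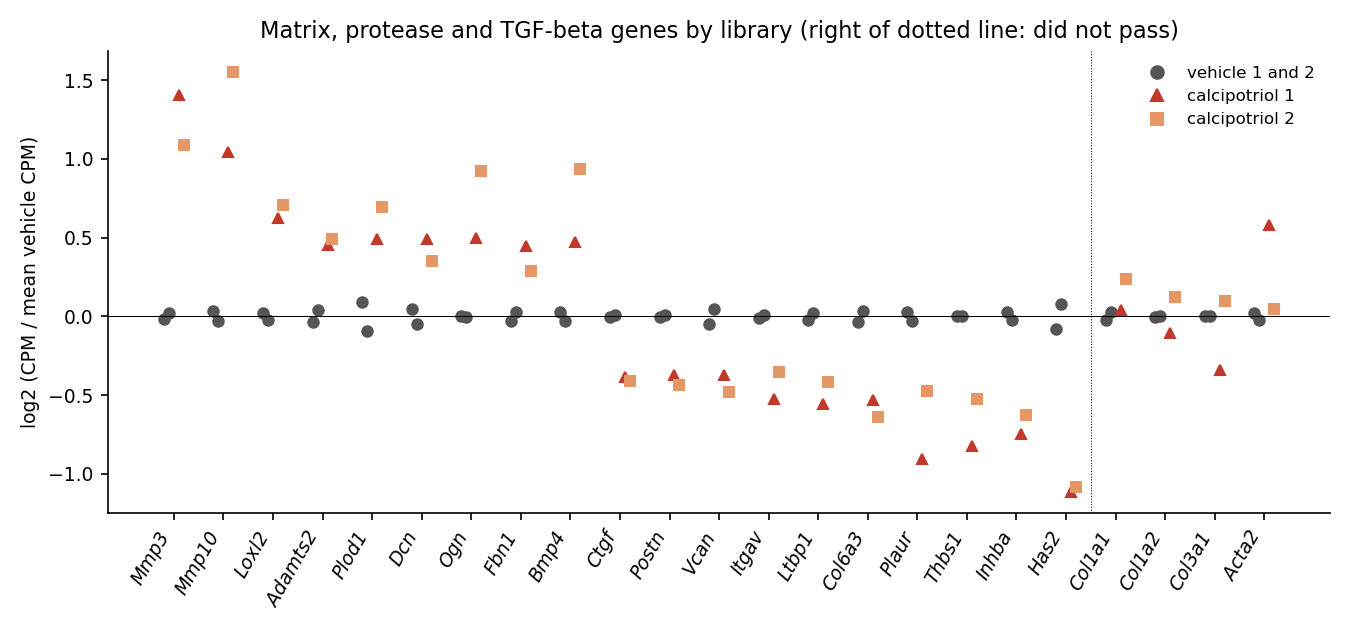
Level of matrix, protease and TGF-beta genes in each WT library as log2 of CPM over the mean of the vehicle libraries. Grey circles are vehicle, triangles and squares calcipotriol replicates 1 and 2; genes right of the dotted line (Col1a1, Col1a2, Col3a1, Acta2) did not pass. The vehicle libraries lie close to 0, and the fitted log2 fold change is 1.25 for Mmp3, 1.32 for Mmp10 and -1.10 for Has2.

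Genes of growth factors and receptors moved in both directions. Of 38 tested, 3 rose and 2 fell (1.48% of all genes tested rose and 1.4% fell). Kitl, the stem cell factor, was abundant and stood at 392.4 and 409 CPM with vehicle and 753 and 694 CPM with calcipotriol (0.85 ± 0.0686), and the insulin-like growth factor binding protein gene Igfbp4 rose from 13.6 and 11.8 CPM to a mean of 23.9 ± 1.603 CPM (SD, n = 2; log2 fold change 0.91 ± 0.126). Vegfa, the angiogenic factor, rose too (0.45 ± 0.0751). Hbegf, given above, fell, as did Met, the receptor of hepatocyte growth factor, from 147 and 144 CPM to 92.03 and 112 CPM (-0.51 ± 0.0947). Kitl, Igfbp4 and Hbegf passed in every leave-one-out fit, and Vegfa and Met did not. Met also lost its call with a correction for gene length. In this list 2 rose and 1 fell without either vehicle library, 8 and 7 without calcipotriol replicate 1, and 16 and 8 without replicate 2. In the Wnt list of 26 tested genes, Lrp5 rose and Wisp1, a matricellular target of Wnt signalling, fell (-0.38 ± 0.0691), where 1.48% of all genes tested rose and 1.4% fell. Both Lrp5 and Wisp1 lost their calls without either vehicle library. In that list 4 rose and 2 fell without calcipotriol replicate 1, and 7 and 3 without replicate 2.

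Of 23 tested p53 targets, 4 rose and none fell (1.48% of all genes tested rose and 1.4% fell), with a median of 0.37 on the log2 scale. Ddit4, an inhibitor of mTORC1, rose from 39.3 and 42.3 CPM to 62.99 and 60.8 CPM (0.60 ± 0.0760), and Ei24 (0.37 ± 0.0659), Phlda3 (0.37 ± 0.0747) and the death effector Bax (0.36 ± 0.0733) rose by less. Others differed between the treated libraries: Trp53inp1 stood at 18.2 and 17.9 CPM with vehicle and 58.8 and 23.9 CPM with calcipotriol and Fas, a death receptor, at 8.09 and 8.199 CPM with vehicle and 22.96 and 9.37 CPM with calcipotriol, and neither passed. The median was 0.45 in calcipotriol replicate 1 and 0.15 in replicate 2. Mdm2, the main feedback target of p53, stood at 253 and 271 CPM with vehicle and 293 and 256 CPM with calcipotriol and did not pass. Without vehicle replicates 1 and 2, 0 and 1 members rose, and without calcipotriol replicates 1 and 2, 8 and 19 rose and 0 and 2 fell. Fits without a calcipotriol library called a far larger share of all genes, so their counts are not a result about this list. With a correction for gene length 2 rose, and Bax and Phlda3 lost their calls. Over all 11987 genes tested, 125 rose and 47 fell with that correction.

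Most genes of dividing cells did not pass (over all genes tested, 1.48% rose and 1.4% fell). Of 40 tested cell cycle genes, Mki67, the proliferation marker, fell from 613 and 632 CPM to 472 and 497 CPM (-0.36 ± 0.0634) and Cenpf, a kinetochore protein, from 152 and 158 CPM to 120.2 and 126 CPM (-0.33 ± 0.0645), and 38 did not pass (median -0.09). Ccnd1, cyclin D1, stood at 309.8 and 307 CPM with vehicle and 146 and 233 CPM with calcipotriol (-0.70 ± 0.179; adjusted p = 0.0798, edgeR) and did not pass. Without either vehicle library, and with a correction for gene length, 0 cell cycle genes passed, while 8 fell without calcipotriol replicate 1 and 20 without replicate 2.

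Other groups held few changes, and of the calls first named in this paragraph that of Vldlr was kept without vehicle replicate 1 and none without vehicle replicate 2. In fatty acid synthesis and storage, Lpl, lipoprotein lipase, rose (0.46 ± 0.0854), as did Plin3, a lipid droplet protein (0.63 ± 0.121), and Fasn, fatty acid synthase, fell (-0.30 ± 0.0624). In calcium handling the exchanger gene Slc8a1 rose (0.86 ± 0.175), with the calcium-binding protein S100a13 (0.54 ± 0.0811). Among immediate early genes, the phosphatase Dusp1 rose (0.50 ± 0.0925) and the transcription factor Egr1 fell (-0.49 ± 0.0947), and among nuclear receptors Nr2f2 fell (-0.34 ± 0.0632) beside the rise of Vdr, given above, which was kept in both. Vldlr, a lipoprotein receptor, rose in the stress response list (0.75 ± 0.117). With a correction for gene length, the calls of Plin3, Fasn, S100a13, Dusp1, Egr1 and Nr2f2 were lost. Those of Lpl, Slc8a1 and Vldlr were kept. When calcipotriol replicate 1 was left out, 2 genes of fatty acids rose and 3 fell, 7 and 4 of calcium handling, 4 and 7 immediate early genes, 7 and 4 nuclear receptors and 11 and 1 stress response genes. Without replicate 2 these counts were 10 and 3, 10 and 8, 5 and 16, 4 and 5, and 11 and 7. Over all genes tested in the 4 libraries, 1.48% rose and 1.4% fell. Fits without a calcipotriol library called a far larger share of all genes, so their list counts are not a result about these lists. No member passed among 30 interferon response genes (smallest p for Gbp2, 0.82 ± 0.188), 30 NRF2 targets (Abcc1, -0.31 ± 0.0677), 35 autophagy and lysosome genes (Ctsl, 0.38 ± 0.0815), 25 cholesterol synthesis genes (Ebp, 0.31 ± 0.0832), 18 circadian genes (Clock, -0.24 ± 0.0622) and 16 heat shock proteins (Hspd1, -0.26 ± 0.0736). These counts of 0 held without either vehicle library. Without calcipotriol replicate 2, 14 interferon genes rose and 1 fell, 11 NRF2 targets rose and 6 fell, 19 autophagy and lysosome genes and 20 cholesterol genes rose and 0 fell, 2 circadian genes rose and 5 fell, and 2 heat shock proteins rose and 7 fell. Without calcipotriol replicate 1 the counts were 4 and 2, 8 and 1, 6 and 0, 1 and 0, 0 and 2, and 1 and 4, in that order.

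Most inflammatory genes did not pass (over all genes tested, 1.48% rose and 1.4% fell), and several differed between the treated libraries. Of 24 tested cytokines and NF-kB targets, 1 passed, Tnfaip3, the feedback inhibitor of NF-kB, which fell from 56.9 and 59.2 CPM to 43.2 and 37.01 CPM (-0.53 ± 0.0913), a call that was lost without either vehicle library. Without calcipotriol replicate 1, 2 rose and 6 fell in this list, and without replicate 2, 11 rose and 5 fell. Il6 stood at 8.62 and 7.87 CPM with vehicle and 5.08 and 4.902 CPM with calcipotriol (-0.72 ± 0.191; adjusted p = 0.0862, edgeR) and did not pass. The acute phase gene Saa3 stood at 0.201 and 0.264 CPM with vehicle and 31.3 and 0.539 CPM with calcipotriol, the chemokine genes Cxcl1 at 1.002 and 0.661 CPM with vehicle and 9.93 and 1.02 CPM with calcipotriol, Ccl2 at 8.42 and 7.54 CPM with vehicle and 27.2 and 6.25 CPM with calcipotriol and Ccl7 at 3.07 and 2.91 CPM with vehicle and 11.6 and 3.29 CPM with calcipotriol. Among the WT libraries the level of all 4 was high in calcipotriol replicate 1 alone, and replicate 2 lay far closer to vehicle. The chemokine genes also split the untreated p62KO libraries. In p62KO vehicle replicates 1 and 2, Cxcl1 stood at 149 and 0.797 CPM, Ccl2 at 354 and 26.1 CPM and Ccl7 at 198 and 13.4 CPM.

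The same library was higher in further genes. Wisp2, a matricellular protein, stood at 0.869 and 0.595 CPM with vehicle and 18.6 and 0.323 CPM with calcipotriol, Ogdhl at 2.87 and 3.57 CPM with vehicle and 10.9 and 1.94 CPM with calcipotriol, Gstt1, a glutathione transferase, at 2.14 and 3.97 CPM with vehicle and 13.1 and 3.07 CPM with calcipotriol, Rprm at 1.74 and 2.18 CPM with vehicle and 5.902 and 1.19 CPM with calcipotriol and Lama4, a laminin chain, at 5.88 and 5.03 CPM with vehicle and 15.8 and 4.09 CPM with calcipotriol. Gpnmb, a glycoprotein of lysosomes and macrophages, stood at 56.1 and 54.6 CPM with vehicle and 187 and 59.5 CPM with calcipotriol, Igfbp7 at 56.7 and 59.2 CPM with vehicle and 159 and 60.7 CPM with calcipotriol and the lysosomal protease Ctsd at 437 and 422 CPM with vehicle and 651 and 467 CPM with calcipotriol. The median of the 25 cholesterol synthesis genes was 0.53 in calcipotriol replicate 1 and -0.01 in replicate 2, with Hmgcs1, an early enzyme of the pathway, at 63.2 and 68.7 CPM with vehicle and 99.04 and 63.5 CPM with calcipotriol. Of the macrophage list of 12, 4 were tested and none passed, while 3 rose without calcipotriol replicate 2: Lyz2 stood at 1.604 and 2.05 CPM with vehicle and 7.36 and 1.94 CPM with calcipotriol and Cd68 at 1.404 and 0.860 CPM with vehicle and 3.16 and 1.72 CPM with calcipotriol, while Clec4f and Emr1 (F4/80) had no counts and the summed level of the list was 26.2 and 24.1 CPM with vehicle and 36.4 and 27.7 CPM with calcipotriol. The opposite split was seen in Ano1, a chloride channel, at 9.09 and 9.98 CPM with vehicle and 5.200 and 11.7 CPM with calcipotriol, and in Tnnt2, a troponin, at 19.6 and 19.9 CPM with vehicle and 6.14 and 11.6 CPM with calcipotriol. Calcipotriol replicate 1 was the lowest library in both. The part of these differences in the results was not tested. In bulk RNA, a change in the number of cells of a kind and a change in RNA per cell cannot be told apart.

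**Figure D4:**
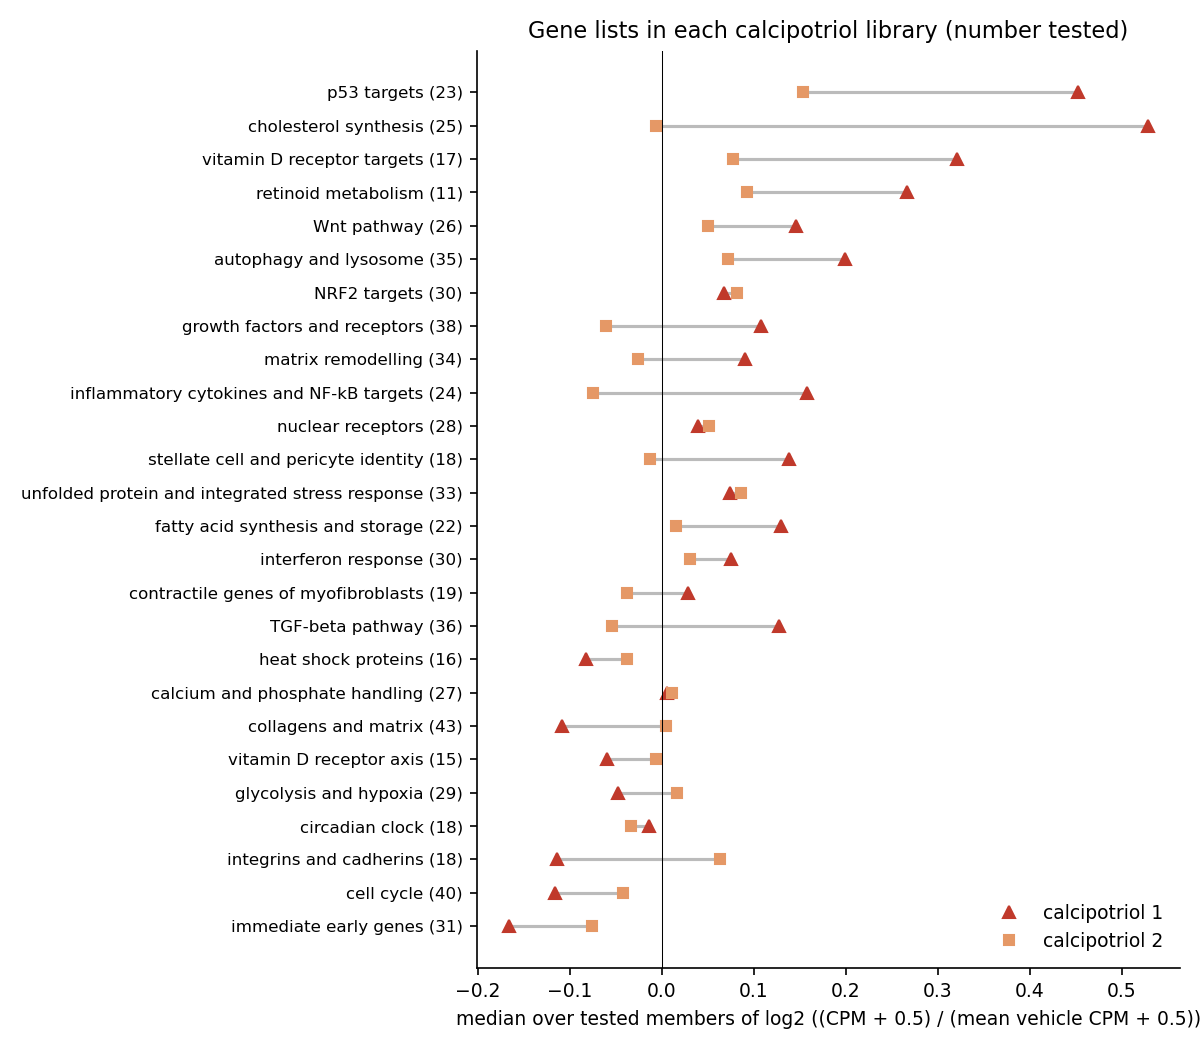
Median over the tested members of each list with 10 or more of them, as log2 of CPM plus 0.5 over the vehicle mean plus 0.5, in calcipotriol replicate 1 (triangle) and replicate 2 (square). The lists of cholesterol synthesis (0.53 and -0.01) and p53 targets (0.45 and 0.15) differ between the libraries.

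Transcript length moved with the direction of change. The genes that fell had a median summed exon length of 9437 bases and those that rose 3724 bases, against 4580 bases for all genes tested. In the shortest of 5 length classes (67 to 2590 bases), 50 rose and 1 fell, and in the longest (7816 to 123179 bases), 25 rose and 101 fell. The median log2 fold change went from 0.11 in the shortest to -0.09 in the longest class. Both treated libraries showed it, with 0.11 and -0.09 in calcipotriol replicate 1 and 0.10 and -0.10 in replicate 2, while the vehicle libraries differed from each other by 0.01 and -0.01. When the trend with length was removed from each library, an alternative chosen after seeing these data, 172 genes passed, 125 higher and 47 lower. Of the genes called without it, 118 of 177 that rose and 46 of 168 that fell passed, among them Cyp24a1, Vdr, Has2, Rcan2, Inhba and Thbs1. List counts given with a correction for gene length are to be read beside the 125 and 47 of all genes tested. What underlies the trend was not tested.

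**Figure D5:**
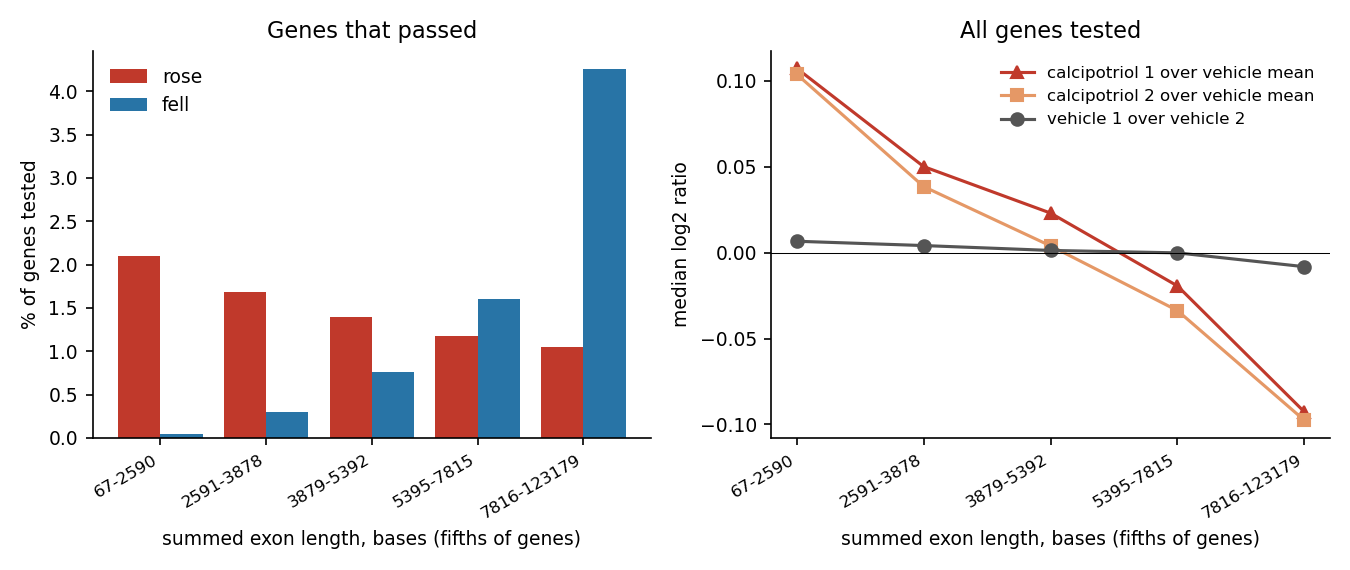
Left, share of tested genes that rose (red) or fell (blue) in 5 classes of genes by summed exon length in bases. Right, median log2 ratio in the same classes for each calcipotriol library over the vehicle mean and for vehicle replicate 1 over replicate 2. The share that fell goes from 0.0421% to 4.25% from the shortest to the longest class, and both calcipotriol lines slope down while the vehicle line stays near 0.

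In p62KO cells the same treatment gave no gene past the threshold: 0 of 12453 passed in a fit of the 4 p62KO libraries (0%; edgeR; 533 at an unadjusted p under 0.05, 4.28%, and 11 with DESeq2), and 304 passed without p62KO vehicle replicate 2. These libraries varied more, with a chi-squared per degree of freedom of 58.0 for vehicle and 190.2 for calcipotriol. Cyp24a1 stood at 1.85 and 5.16 CPM with vehicle and 33.1 and 23.9 CPM with calcipotriol in p62KO cells (log2 fold change 3.02 ± 0.505, against 3.07 ± 0.147 in WT), and Vdr at 10.3 and 15.6 CPM with vehicle and 19.7 and 25.99 CPM with calcipotriol (0.82 ± 0.378). Rassf2 (2.48 ± 0.437), Afap1l2 (2.01 ± 0.350), Cib2 (1.46 ± 0.352), Apcdd1 (1.63 ± 0.364) and F11r (1.07 ± 0.340) were higher in both treated p62KO libraries than in both controls, and Has2 (-0.90 ± 0.358) was lower in both. The share of all genes with such separation was 56.1% in WT cells and was not counted in p62KO cells. Other genes that rose in WT cells had a fitted change of the opposite sign in p62KO cells, among them Abcb1a (-1.82 ± 0.727), Igfbp4 (-0.54 ± 0.526) and Cdo1 (-0.47 ± 0.544). In p62KO cells Igfbp4 stood at 59.8 and 14.7 CPM with vehicle and 22.4 and 28.99 CPM with calcipotriol. Cdo1 stood at 7.45 and 3.03 CPM with vehicle and 4.04 and 3.54 CPM with calcipotriol. For Igfbp4 and Cdo1 both treated libraries lay above vehicle replicate 2, so the sign rests on vehicle replicate 1. The treated libraries of Abcb1a, given below, lay on both sides of vehicle replicate 2. Of 342 WT calls with a value in p62KO cells, 241 had the same sign (70.5%), against 55.6% of the 11759 genes tested in both; these comparisons share no library.

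The difference between the genotypes was tested as an interaction over all 8 stellate cell libraries. No gene passed (0 of 12681, 0%; edgeR; 677 at an unadjusted p under 0.05, 5.34%, and 0 with DESeq2), but 2514 did without p62KO calcipotriol replicate 1 and 7 without p62KO vehicle replicate 2, so the count rests on single p62KO libraries. The 8 genes with the smallest p, none of which passed, were Cyp1a1, Map3k5, Cdo1, Abcb1a, Scel, Fgf5, Gal3st2 and Limch1 (unadjusted p from 0.000718 to 0.00472; adjusted p = 0.708 for each, edgeR). Cyp1a1, a target of the aryl hydrocarbon receptor, stood at 0.267 and 0.264 CPM with vehicle and 1.69 and 0.862 CPM with calcipotriol in WT cells and at 7.34 and 7.97 CPM with vehicle and 3.81 and 4.07 CPM with calcipotriol in p62KO cells. Map3k5, the stress kinase ASK1, stood at 13.4 and 11.7 CPM with vehicle and 23.1 and 22.7 CPM with calcipotriol in WT cells, where it rose (0.87 ± 0.123), and at 13.4 and 7.17 CPM with vehicle and 5.15 and 4.32 CPM with calcipotriol in p62KO cells (-1.12 ± 0.467). Abcb1a stood at 11.8 and 2.02 CPM with vehicle and 2.402 and 1.501 CPM with calcipotriol in p62KO cells, with 1 vehicle library far above the other. For TGF-beta genes that fell in WT cells, the p62KO values were 0.11 ± 0.324 for Inhba, -0.02 ± 0.306 for Thbs1, 0.15 ± 0.316 for Ctgf and -0.07 ± 0.313 for Ltbp1, and their unadjusted p of the difference was 0.0171, 0.0525, 0.0877 and 0.108, which did not pass after adjustment. Nothing in the labels says how many lines stand behind each genotype, so any difference between them is one between the lines used.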

How the data were processed

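RNA of cultured stellate cells was selected for poly(A), made into directional libraries and read from 1 end over 75 bases on a NextSeq 500, per the labels' protocols. The deposited table holds counts per gene symbol, raw as the authors made them: they are whole numbers with different library totals, although the table is named for another unit. The build is mm10, per the submitters' processing notes, and the aligner, counter and annotation are not given in the sources used here. Some symbols had been turned into dates (25 of 23418), and 98.1% had a position and summed exon length in GENCODE vM21.

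The 4 WT libraries were fitted alone with edgeR 4.0.16 (R 4.3.3), using TMM scaling, its filter on low counts, the quasi-likelihood test and Benjamini-Hochberg adjustment over the 11987 genes kept. Adjusted p under 0.05 was called. SE is that of the log2 fold change. The same test was run on the p62KO libraries and on the interaction over 8 libraries. Total counts were 15207117 to 18613062 in the 4 WT libraries. DESeq2 1.42.0, other scalings and filters, left-out libraries, a replicate block and a length offset were alternatives. The code was tested on simulated data.

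Genes were named by a rule: all measured members of the vitamin D axis, the 15 largest rises and 15 largest falls among called genes with a mean of 5 CPM or more in the higher group, up to 4 called members of each list by smallest p (or 1 not called), the 8 genes that split the calcipotriol libraries most each way, of which examples are given, and the 8 with the smallest p of the difference between genotypes. The members and gene lists were chosen with earlier results of these data known, and no set test was run. Some members counted in the lists are not reported here by name.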

Additional observations from a re-analysis of the deposited data

Results flagged for a closer look

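Only the 97 named genes called in WT stellate cells were screened for opposite movement, and the other calls were not. In 2 of the 97, both calcipotriol libraries of the WT cells moved one way against vehicle and both of the p62KO cells the opposite way. Separated groups are common with 2 libraries a group (56.1% of all genes tested in WT cells). The share of all genes with such opposite movement was not counted, so the number found is not a result about opposite movement. Fasn, fatty acid synthase, had a log2 fold change of -0.30 in WT and 0.75 in p62KO cells. Map3k5, the stress kinase ASK1, had 0.87 in WT and -1.12 in p62KO cells. The difference itself did not pass for either (unadjusted p = 0.0179 for Fasn and 0.00165 for Map3k5, adjusted p = 0.708 for both, edgeR).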

How the results depend on the processing

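The WT count of 345 (177 rose, 168 fell) was 552 (279 and 273) with no filter on low counts, 496 (227 and 269) with DESeq2, 474 (227 and 247) with robust estimation, 172 (125 and 47) with the length offset, chosen after seeing the data, 53 (48 and 5) at 2-fold or more, and 0 (0 and 0) with all 8 stellate cell libraries in 1 edgeR fit (301 at an unadjusted p under 0.05). Left-out libraries gave 109 to 4954 genes, 77 to 2308 that rose and 26 to 2646 that fell. With the replicate number as a block the counts were 998, 530 and 468, but the numbers did not pair the libraries (correlation of same-numbered deviations -0.0066). The p62KO count of 0 was 14 with no filter, 11 with DESeq2, 20 with the replicate block and 0 to 304 with a library left out. The interaction count of 0 became 0 to 2514 with a library left out and stayed 0 with the replicate block and every other setting run. For the named genes, 1541 of 1868 alternative values kept direction and side of the threshold, 221 lost and 93 gained a call, and 13 changed sign. The sign changed in the 8-library fit for Col1a2 (-0.012) and Pdia3 (-0.00741), and with the length offset for Ncoa2 (0.020) and Pdia3 (-0.032). With a library left out, the log2 fold change ran from -0.92 to 0.25 for Apob, -0.12 to 0.12 for Col1a2, -0.35 to 0.094 for Col3a1, -0.12 to 0.84 for Fdft1, -0.056 to 0.58 for Hmgcs1, -0.034 to 0.15 for Mdm2, -0.00329 to 0.19 for Ncoa1 and -0.0447 to 0.25 for Rxrb. The cause of these changes was not tested. With 2 libraries a group, depth limits low genes: those under the filter were not tested.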
